A study of Mus musculus with 6 samples.

Results

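The genes described here are 9 interferon-stimulated genes, Isg15, Usp18, Oas1a, Irf7, Rtp4, Stat2, Irf9, Ifit2 and Oasl2, of 37310 gene identifiers counted in mouse tailbuds. They were chosen from their counts in these same libraries, with the difference between mutant and wild type in view, so their values in that contrast are given as a description, without a test and without support for anything else. All 9 were found in the files and all 9 passed the filter on low counts, which kept 15471 genes. Isg15, Usp18, Oas1a, Irf7 and Rtp4 passed it only with their mutant libraries. Polyadenylated RNA was sequenced from embryos at embryonic day 9.5, 3 libraries from WT/WT tailbuds and 3 from Sd/Sd tailbuds, both genotypes on an outbred CD-1 background. Sd is Danforth's short tail, a semidominant mutation near Ptf1a, and the Sd/Sd libraries come from homozygotes. Tailbuds were combined across embryos where a single one gave too little RNA, so a library may hold more than 1 embryo; which libraries do is not stated. Nothing in the labels ties a library to a litter, and the spread between libraries may be partly technical.

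Interferons are secreted proteins that cells release on sensing foreign or misplaced nucleic acid. The type I receptor, through the kinases JAK1 and TYK2, activates a complex that holds STAT2 and IRF9 and binds the interferon-stimulated response element in the promoters of its target genes. Among those targets, Isg15 encodes a ubiquitin-like modifier, Usp18 the protease that removes it and also dampens the receptor, Oas1a and Oasl2 members of the oligoadenylate synthetase family, Ifit2 an RNA-response protein with tetratricopeptide repeats, Irf7 a transcription factor that amplifies interferon production, and Rtp4 a chaperone of membrane receptors. Stat2 and Irf9 encode subunits of the activating complex itself and are made without interferon in most cells.

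The sequences shown next are the stretches upstream of the transcription start in which the core of that response element was found, because they are the letters that the activating complex is known to read. RefSeq promoter windows of 300 bases, 250 before and 50 after a start (GRCm38.p6), matched 7 of the 9 genes; Usp18 and Rtp4 had none. The core was searched as TTTCNNTTTC on both strands (GAAANNGAAA read from the other strand), counting overlapping matches. Capitals mark the core, overlapping cores run together, and positions are counted from the start, with the first base before it at -1. The 3 stretches lie at chr4:156200850-156200921 on the minus strand (Isg15), chr5:120907526-120907570 on the minus strand (Oas1a) and chr10:128270251-128270310 on the plus strand (Stat2), all GRCm38.p6 and each written 5′ to 3′ along its gene.
Isg15: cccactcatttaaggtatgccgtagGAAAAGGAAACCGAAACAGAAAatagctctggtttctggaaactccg
Oas1a: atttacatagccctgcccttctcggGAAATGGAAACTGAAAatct
Stat2: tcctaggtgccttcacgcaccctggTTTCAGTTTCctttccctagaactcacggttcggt

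The Isg15 window held 3 overlapping cores, whose first bases lie at -78, -72 and -66. Oas1a held 2, at -20 and -14, and Stat2 held 1, at -222. No match to these letters was found in the windows of Irf7, Irf9, Ifit2 and Oasl2. Thus 3 of 7 genes (42.9%) held the core, beside 48 of 133 other interferon pathway genes with a window (36.1%) and 1079 of 27025 genes in all (3.99%). The gamma-activated site core, TTCNNNGAA, which reads the same on both strands, was present in 2 of the 7 genes, Oas1a at -98 and Ifit2 at -241, and in 9.55% of all genes. Neither of those matches overlapped a response element core. A match describes the letters in the window only.

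The genotype labels were checked on Ptf1a, which stood at 0.0237 to 0.0948 CPM in wild type and 13.8 to 20.6 CPM in Sd/Sd. Shh, a notochord signal gene, stood at 13.4 to 16.5 CPM and 4.30 to 6.74 CPM. Levels are in CPM, a count relative to the library's total after a scaling for library composition (TMM). Libraries held 41788978 to 62296689 counts, so 1 count was worth 0.0160 to 0.0243 CPM. All 9 tailbud progenitor markers, among them Tbx6 and Msgn1, were present, with summed levels of 553 to 779 CPM in wild type and 375 to 894 CPM in Sd/Sd.

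The 9 genes fell into a group whose levels in Sd/Sd all lay above those in WT, and a group whose levels overlapped. Isg15, Usp18, Oas1a, Irf7 and Rtp4, each under 1 CPM on average, made up the first group, with mean levels 2.44 to 6.47 times as high in Sd/Sd. Stat2, Irf9, Ifit2 and Oasl2 made up the second, with mean levels 0.963 to 1.01 times those in WT. The 5 genes of the first group summed to 0.687 to 1.44 CPM in wild type and 2.22 to 7.14 CPM in Sd/Sd. The other 4 summed to 44.0 to 53.9 CPM in wild type and 44.4 to 51.4 CPM in Sd/Sd.

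**Figure D1:**
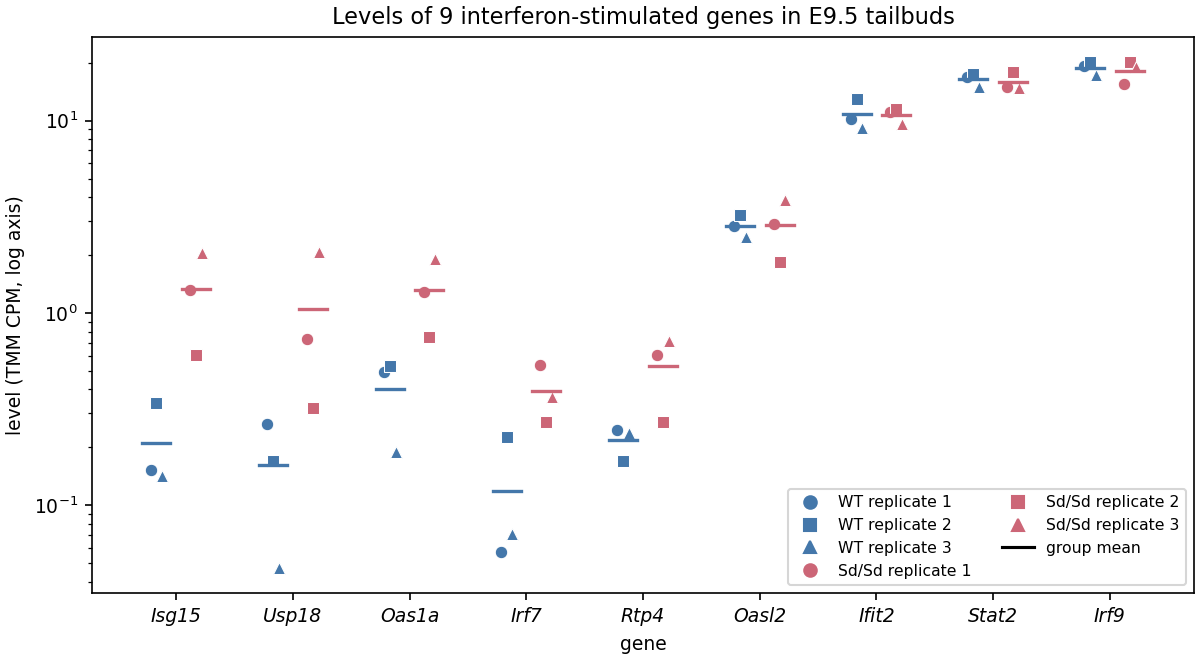
Level of each gene (TMM CPM, log axis) in the 3 WT libraries (blue) and the 3 Sd/Sd libraries (red), with marker shapes for replicates and a line for each group mean. For the 5 genes on the left every Sd/Sd point lies above every WT point, and for the 4 on the right, from 1.84 to 20.2 CPM, the groups overlap.

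Isg15 (ENSMUSG00000035692.6, chromosome 4), the ubiquitin-like modifier, had 8, 18 and 6 counts in WT replicates 1 to 3 and 54, 38 and 101 in Sd/Sd replicates 1 to 3. Scaled, these were 0.152, 0.341 and 0.142 CPM in wild type and 1.31, 0.607 and 2.06 CPM in Sd/Sd. The lowest Sd/Sd library, replicate 2, stood above the highest WT library, also replicate 2, and the groups did not overlap. The mean was 0.212 ± 0.112 CPM over WT libraries and 1.33 ± 0.727 CPM over Sd/Sd libraries (SD, n = 3 each), for a log2 fold change of 2.61 (SE 0.56). Over summed counts, 32 in WT and 193 in Sd/Sd, the ratio was 5.83 (95% exact interval 3.996 to 8.76). Intervals of this kind treat the summed counts as independent reads and leave out the spread between libraries. Several reads can also come from 1 molecule, so they can be too narrow even for counting error.

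Usp18 (ENSMUSG00000030107.9, chromosome 6), the protease that takes Isg15 off its substrates, had 14, 9 and 2 counts in WT and 30, 20 and 102 in Sd/Sd. Its levels were 0.266, 0.170 and 0.0474 CPM in wild type and 0.728, 0.319 and 2.08 CPM in Sd/Sd. The groups did not overlap, but Sd/Sd replicate 3 alone held most of the Sd/Sd counts. The log2 fold change was 2.64 (SE 0.80), and 1.63 without that library. Summed counts of 25 and 152 gave a ratio of 5.88 (95% exact interval 3.83 to 9.37).

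Oas1a (ENSMUSG00000052776.9, chromosome 5) encodes an enzyme that answers double-stranded RNA by making oligoadenylates. It had 26, 28 and 8 counts in WT and 53, 47 and 94 in Sd/Sd, or 0.493, 0.530 and 0.190 CPM against 1.29, 0.751 and 1.92 CPM. Every Sd/Sd library was above every WT library, again with replicate 3 highest. The log2 fold change was 1.68 (SE 0.49), and summed counts of 62 and 194 gave a ratio of 3.02 (95% exact interval 2.26 to 4.10). Oas1a lies in a cluster of near copies on chromosome 5, and how the authors' counting shared reads among these is not stated, which leaves its count uncertain to that extent.

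Irf7 (ENSMUSG00000025498.7, chromosome 7), the amplifying transcription factor, was the lowest of the 9, with 3, 12 and 3 counts in WT and 22, 17 and 18 in Sd/Sd. Its levels were 0.0569, 0.227 and 0.0711 CPM in wild type and 0.534, 0.272 and 0.367 CPM in Sd/Sd. The gap between WT replicate 2 and Sd/Sd replicate 2 was narrow, and this was the only gene of the 5 whose highest library was Sd/Sd replicate 1. The log2 fold change was 1.66 (SE 0.62), and 2.56 without WT replicate 2. Summed counts of 18 and 57 gave a ratio of 3.06 (95% exact interval 1.78 to 5.53).

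Rtp4 (ENSMUSG00000033355.5, chromosome 16), the receptor chaperone, had 13, 9 and 10 counts in WT and 25, 17 and 35 in Sd/Sd. These came to 0.247, 0.170 and 0.237 CPM against 0.607, 0.272 and 0.714 CPM, with Sd/Sd replicate 2 just above WT replicate 1. Its log2 fold change was 1.26 (SE 0.50), the smallest of the 5, and summed counts of 32 and 77 gave a ratio of 2.33 (95% exact interval 1.52 to 3.63). In GENCODE M21, 13.9% of the exonic bases of Rtp4 are shared with Gm45338, a transcript on the same strand, so a part of its reads could belong to either. Smaller parts are shared for Usp18 (4.44%, with Gm44148 on the other strand), Irf9 (2.28%, with Rnf31 on the same strand) and Irf7 (1.19%, with Phrf1 on the other strand).

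Stat2 (ENSMUSG00000040033.8, chromosome 10), the STAT subunit peculiar to the type I and type III responses, stood at 16.9, 17.5 and 15.1 CPM in wild type and 14.9, 17.9 and 14.8 CPM in Sd/Sd. Irf9 (ENSMUSG00000002325.8, chromosome 14), its DNA-binding partner, stood at 19.2, 20.2 and 17.2 CPM in wild type and 15.5, 20.2 and 19.0 CPM in Sd/Sd. The groups overlapped for both, with log2 fold changes of -0.05 (SE 0.12) for Stat2 and -0.05 (SE 0.13) for Irf9. With 2452 and 2807 summed WT counts the counting intervals of the ratio were narrow, 0.918 to 1.03 for Stat2 and 0.926 to 1.03 for Irf9.

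Ifit2 (ENSMUSG00000045932.6, chromosome 19), the RNA-response protein gene, stood at 10.2, 13.02 and 9.19 CPM in wild type and 11.1, 11.5 and 9.67 CPM in Sd/Sd, with overlapping groups and a log2 fold change of -0.01 (SE 0.16). Its relatives Ifit1 and Ifit3 had only 14 and 23 summed counts in WT and 24 and 40 in Sd/Sd. Per kilobase of exon, Ifit2 averaged 2.74 CPM and Ifit3 0.120 CPM.

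Oasl2 (ENSMUSG00000029561.10, chromosome 5), an oligoadenylate synthetase-like gene, was the member under 10 CPM whose groups overlapped. It stood at 2.83, 3.22 and 2.49 CPM in wild type and 2.91, 1.84 and 3.88 CPM in Sd/Sd, so that Sd/Sd held both its lowest and its highest library. Its log2 fold change was 0.01 (SE 0.29), and the ratio of 425 to 424 summed counts, scaled for depth, was 0.969 (95% exact interval 0.845 to 1.11).

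In all, 5 of the 9 genes had groups without overlap and higher in Sd/Sd, beside 3.26% of all genes tested and 3.91% of the tested genes under 1 CPM. The reverse, Sd/Sd below WT without overlap, was seen for 0 of 9, beside 4.42% of all genes. The same 5 had a log2 fold change over 1, beside 0.717% of all genes and 3.19% of the tested genes under 1 CPM. None of the 9 passed an adjusted p under 0.05 in edgeR's quasi-likelihood test with Benjamini-Hochberg adjustment, which 0.0582% of all genes did. At an unadjusted p under 0.05 edgeR placed 5 of 9 higher and 0 lower, beside 0.944% and 1.95% of all genes. DESeq2 called 1 of the 9, Isg15, and 0.220% of all genes, and limma-voom 0 of the 9 and 0.0194% of all genes. Each of Isg15, Usp18, Oas1a, Irf7 and Rtp4 had under 10 counts in at least 1 WT library and passed the filter only with Sd/Sd libraries. Their place among the genes tested was thus tied to the genotype in which they were high. As the 9 were also picked on this contrast, nothing is read from these numbers of genes.

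**Figure D2:**
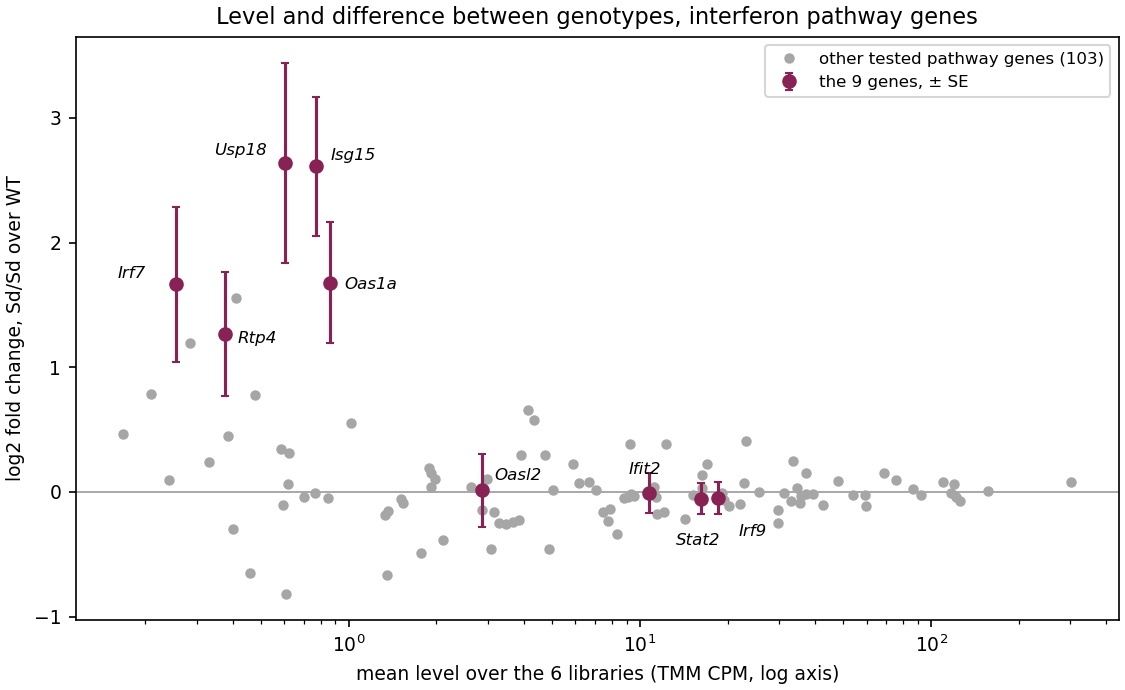
Log2 fold change of Sd/Sd over WT against the mean level over the 6 libraries (TMM CPM, log axis), for the 9 genes (purple, bars ± SE) and for the 103 other tested interferon pathway genes (grey). The 5 genes with a log2 fold change of 1.26 to 2.64 all lie under 1 CPM, while Oasl2, Ifit2, Stat2 and Irf9 lie near 0.

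Low-level genes were compared with the well expressed factors per kilobase of exon (union of GENCODE M21 exons), since raw CPM grows with length. In order of mean level over the 6 libraries, Irf9 stood at 3.44, Ifit2 at 2.74, Stat2 at 2.73 and Isg15 at 1.02 CPM per kilobase. Below these came Oas1a at 0.457, Oasl2 at 0.449, Usp18 at 0.216, Rtp4 at 0.176 and Irf7 at 0.0674 CPM per kilobase. The ranges over the 6 libraries overlapped between every pair of neighbours in this order, Stat2 and Isg15 included, since Isg15 in Sd/Sd replicate 3 was above the lowest library of Stat2. Among all genes tested, Irf9 lay at percentile 43.0, Isg15 at 25.6 and Irf7 at 2.2, so that even the highest of the 9 was below the middle gene.

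Other STAT factors lay on both sides of Stat2 and Irf9. Stat5b averaged 5.97, Stat6 3.46, Stat3 3.12 and Stat5a 0.538 CPM per kilobase. The distance of Isg15 from Stat2 was not uniform across libraries: in Sd/Sd replicate 3, Isg15 reached 2.73 CPM per kilobase beside 2.495 for Stat2, whereas in WT replicate 3 they stood at 0.188 and 2.54.

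The log2 fold changes of Stat3, Stat5a, Stat5b and Stat6 were -0.14, -0.23, -0.08 and -0.03, and the groups overlapped for each.

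Among libraries, the 5 genes without overlap had a common pattern. Sd/Sd replicate 3 was highest for 4 of them and Sd/Sd replicate 1 for Irf7. WT replicate 3 was lowest for Isg15, Usp18 and Oas1a, WT replicate 1 for Irf7 and WT replicate 2 for Rtp4. Sd/Sd replicate 2 was the lowest Sd/Sd library for all 5. For the other 4 genes no library was the highest or lowest in common: WT replicate 2 was highest for Ifit2 and Sd/Sd replicate 2 for Stat2, and for Irf9 those 2 libraries were level at 20.2 CPM.

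**Figure D3:**
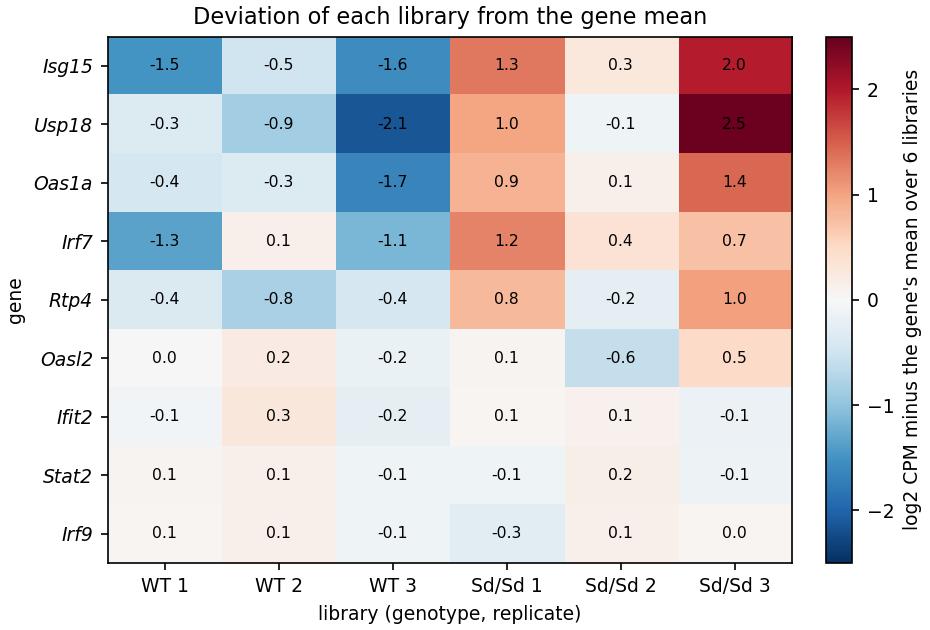
Deviation of log2 CPM (prior count 2) in each of the 6 libraries from the mean of the gene, with red above and blue below the mean and values printed in the cells. The upper 5 genes reach 2.5 for Usp18 and 2.0 for Isg15 in Sd/Sd replicate 3 and go down to -2.1 for Usp18 in WT replicate 3, while Ifit2, Stat2 and Irf9 stay between -0.3 and 0.3.

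The spread between libraries of a genotype was also unlike in the 2 groups of genes, which differ in level as well. Whether the spread differed beyond what level brings was not tested. The within-group SD of log2 CPM was 0.51 for Rtp4, 0.64 for Irf7, 0.69 for Oas1a, 0.74 for Isg15 and 1.12 for Usp18, beside a median of 0.53 over the tested genes under 1 CPM. It was 0.14 for Stat2, 0.17 for Irf9, 0.20 for Ifit2 and 0.40 for Oasl2, beside a median of 0.16 over all genes tested.

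Markers of other cell types gave the following values in the same libraries. In whole tailbuds, more cells of a type and more RNA per cell cannot be told apart. Summed over 13 myeloid genes, of which 5 passed the filter, the level was 6.21 to 7.98 CPM in wild type and 5.80 to 7.39 CPM in Sd/Sd. Cd68, a lysosomal gene of macrophages, made up most of that sum, at 4.30 CPM on average, with overlapping groups. Single markers went different ways. Fcer1g (55 summed WT counts and 84 summed Sd/Sd counts) and Tyrobp (7 and 18), signalling adaptors of myeloid cells, were higher in every Sd/Sd library than in any WT library, for Fcer1g by a narrow margin at 0.436 and 0.437 CPM. Spi1 (50 and 26), the gene of the transcription factor PU.1, was lower in every Sd/Sd library. The groups overlapped for the rest, among them Csf1r (76 and 73), Mrc1 (102 and 101), Cx3cr1 (32 and 17), Aif1 (27 and 23) and Lyz2 (14 and 14). The lowest counts were those of Ptprc, the pan-leukocyte CD45 gene (6 and 5), Adgre1, the F4/80 gene of macrophages (1 and 8), C1qa (3 and 6) and C1qb (4 and 11), and no myeloid marker was at 0 in all 6 libraries. The part of myeloid cells in the levels of the 5 genes was not tested. The 8 lymphoid genes summed to 1.40 to 1.95 CPM in wild type and 1.15 to 1.47 CPM in Sd/Sd, with Rag1 and Ncr1 at 0 in every library. Primitive erythroid genes, 8 listed with Alas2 at 0, summed to 3617 to 8809 CPM in wild type and 1733 to 10020 CPM in Sd/Sd. Within Sd/Sd, replicate 2, the library lowest in the 5 genes, was highest in erythroid genes at 10020 CPM, beside 1733 and 2797 CPM in replicates 1 and 3. In WT the order differed, since replicate 2 was highest in both, at 1.44 CPM for the 5 genes and 8809 CPM for the erythroid genes. Tailbud progenitor genes were in turn highest in Sd/Sd replicate 3, at 894 CPM, and lowest in Sd/Sd replicate 2, at 375 CPM. In WT the order again differed. WT replicate 3 was the highest WT library in progenitor genes, at 779 CPM, and the lowest in the 5 genes, at 0.687 CPM. Whether erythroid or progenitor content had a part in the levels of the 5 genes was not tested.

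**Figure D4:**
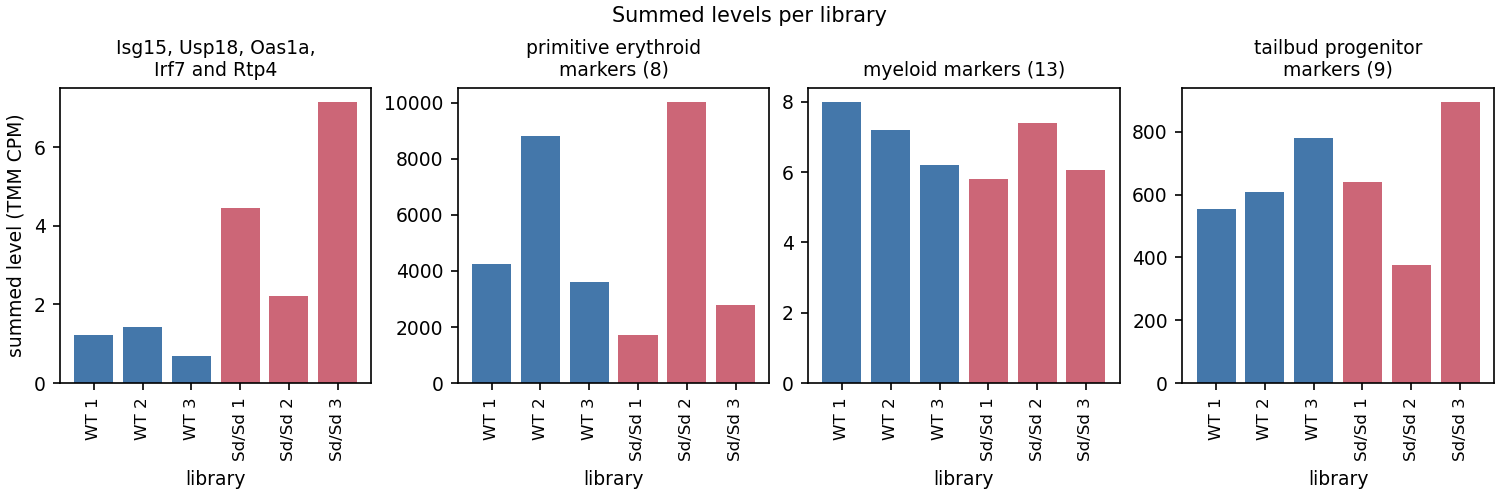
Summed level (TMM CPM, linear axes from 0) in each of the 6 libraries of Isg15, Usp18, Oas1a, Irf7 and Rtp4, and of 8 primitive erythroid, 13 myeloid and 9 tailbud progenitor markers, with WT in blue and Sd/Sd in red. The 5 genes stand at 0.687 to 1.44 in the blue bars and 2.22 to 7.14 in the red ones, while the ranges of the marker sums overlap between genotypes.

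Endothelial genes summed to 577 to 662 CPM in wild type and 490 to 682 CPM in Sd/Sd, all 10 of 10 present. Visceral yolk sac endoderm genes, 8 listed, summed to 11.2 to 12.1 CPM in wild type and 7.22 to 9.95 CPM in Sd/Sd. This was the only one of these marker sums besides the 5 genes that did not overlap, and in the opposite direction. Its single markers went different ways. Apob, Apoa1 and Cubn were lower in every Sd/Sd library, and Amn (46 summed WT counts and 96 summed Sd/Sd counts) was higher in every one. The groups overlapped for Ttr, Apoa4 and the most abundant 2, Rbp4 and Afp, at 4.44 and 2.12 CPM on average. Immediate early and heat shock genes, 11 listed, summed to 280 to 318 CPM in wild type and 217 to 305 CPM in Sd/Sd. The part of either list in the levels of the 5 genes was not tested.

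Interferon ligands had almost no counts. Of 21 ligand genes listed, 11 were matched in the files, among them Ifnb1, Ifng, Ifna4 and Ifnl3, and 10 of these had 0 counts in all 6 libraries. The remaining one, Ifne, had 1 count, in Sd/Sd replicate 3. The ligands that were not matched are not covered. A count of 0 need not mean that no transcript was present. How reads of near copies, such as the Ifna genes, were counted is not stated. Alas2, on the erythroid list, also had 0 in every library, while Hba-x on that list averaged 1845 CPM. All 6 receptor genes were tested and had a negative log2 fold change, with 0 past the adjusted threshold and 0 at an unadjusted p under 0.05. Ifnar1, the first chain of the type I receptor, averaged 92.6 CPM with a log2 fold change of -0.03 (SE 0.09), and Ifngr2, a chain of the interferon gamma receptor, 29.8 CPM with -0.25 (SE 0.13). Ifnlr1, the type III chain, was lower in every Sd/Sd library, at 2.74 to 3.20 CPM beside 3.22 to 3.89 CPM in WT (log2 fold change -0.25, SE 0.20).

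Over 11 lists of interferon pathway genes, 103 tested genes other than the 9 had a median log2 fold change of -0.02, beside 0.00 over all genes tested. In edgeR 0 of the 103 passed the adjusted threshold, and DESeq2 and limma-voom also called 0. At an unadjusted p under 0.05, 6 (5.83%) were higher and 1 (0.971%) was lower, beside 0.944% and 1.95% over all genes. Groups without overlap were found for 4 (3.88%) with Sd/Sd higher and 3 (2.91%) with Sd/Sd lower, beside 3.26% and 4.42% over all genes. Among the 6 were Oas1b, Parp12, Ikbke, Rnaseh2a and H2-D1, and the 1 lower was Irf1. Of these, Oas1b, Parp12 and Ikbke were named after their values were seen.

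Kinases and nucleic acid sensors act upstream of the 9 genes. Jak1 and Jak2, the most abundant kinases of their list per kilobase, differed by -0.04 (SE 0.11) and 0.03 (SE 0.09) on the log2 scale. Of 20 tested sensors and adaptors the median log2 fold change was 0.01. Rnaseh2a, a subunit of the enzyme that clears RNA from DNA, stood at 64.4 to 66.5 CPM in wild type and 69.3 to 75.3 CPM in the Sd/Sd libraries (log2 fold change 0.15, SE 0.07). Rnaseh2c, another subunit, had -0.09 (SE 0.13), and Ikbke, a kinase that activates interferon regulatory factors, 0.58 (SE 0.25) with overlapping groups. Ddx58, the gene of the RNA sensor RIG-I, named after its values were seen, had a log2 fold change of 0.39 (SE 0.29).

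Other interferon regulatory factors did not share the pattern of Irf7. Irf3, the factor that first switches on interferon genes, averaged 42.6 CPM with a log2 fold change of -0.10 (SE 0.10). Irf1, a factor induced chiefly by interferon gamma, stood at 10.0, 8.93 and 9.05 CPM in wild type and 6.60, 7.33 and 8.24 CPM in Sd/Sd, lower without overlap (log2 fold change -0.34, SE 0.15). Over the 6 tested factors other than Irf7 and Irf9 the median was -0.06.

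The other enzymes of Isg15 conjugation did not show the separation of genotypes seen for Isg15 and Usp18, though some of their SEs were wide. Ube2l6, the conjugating enzyme, stood at 6.28, 10.7 and 7.91 CPM in wild type and 3.98, 13.02 and 5.57 CPM in Sd/Sd, with a log2 fold change of -0.13 (SE 0.46). Trim25, a ligase for Isg15 and for RIG-I, averaged 33.5 CPM with 0.25 (SE 0.13). Uba7, the activating enzyme, had -0.23 (SE 0.43) and Herc6, the main mouse ligase, 0.30 (SE 0.24). The groups overlapped for all 4.

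Low-level relatives of Oas1a gave estimates on both sides of WT. Oas1b stood at 0.247, 0.265 and 0.0948 CPM in wild type and 1.04, 0.240 and 0.571 CPM in Sd/Sd, with a log2 fold change of 1.56 (SE 0.63) and overlapping groups. Oas1g and Oas2, under the filter, had 6 and 0 summed counts in WT and 39 and 23 in Sd/Sd. Oas1g thus had a ratio of 6.29 (95% exact interval 2.64 to 18.2), and for Oas2, at 0 in every WT library, the lower 95% exact limit of the ratio was 5.56. Oas1c, a relative of Oas1a that passed the filter, averaged 0.848 CPM with overlapping groups (log2 fold change -0.05, SE 0.32). Oas3 had 13 summed WT counts and 5 summed Sd/Sd counts, a ratio of 0.372 (95% exact interval 0.104 to 1.11). Oas1d had 14 and 10, a ratio of 0.691 (95% exact interval 0.275 to 1.67). These intervals, for genes above WT and below it, leave out the spread between libraries. No difference from equal levels is read from them. Oasl1 had 1 and 9 counts and Oas1f 0 and 2, with overlapping groups, and Oas1e and Oas1h were at 0 in every library. Oas1a, Oas1b, Oas1c, Oas1g and Oas2 all lie on chromosome 5, and reads of such copies may be shared.

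In all, 49 matched pathway genes were under the filter, 32 of them with at least 1 count. Of the 32, 4 had every Sd/Sd library above every WT library, beside 2.72% of all genes under the filter with a count, and 0 the reverse. They were Oas1g, Oas2, Ifi27 and Epsti1. Ifi27 had 3 summed WT counts and 28 summed Sd/Sd counts, which gave a ratio of 9.02 (95% exact interval 2.79 to 46.4), and Epsti1 had 0 and 5. Mx2, an antiviral dynamin-like GTPase gene, had 16 and 65 counts with overlapping groups, at 0.0569, 0.151 and 0.118 CPM in wild type and 0.558, 0.144 and 0.673 CPM in Sd/Sd. As for Isg15, Sd/Sd replicate 2 was the lowest Sd/Sd library for Oas1g, Oas2, Ifi27 and Mx2. For Epsti1 the lowest was Sd/Sd replicate 1, with 1 count beside 2 and 2. Xaf1, with 17 and 44 summed counts and overlapping groups, was also lowest in Sd/Sd replicate 1. The choice of these genes was made from their values.

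Other induced genes were mixed in direction. Parp12, an ADP-ribosyltransferase gene, stood at 3.60, 3.16 and 2.82 CPM in wild type and 4.61, 4.18 and 6.36 CPM in Sd/Sd, without overlap (log2 fold change 0.66, SE 0.22). Rsad2 and Cmpk2, neighbouring genes of viperin and a nucleotide kinase that interferon induces strongly, lay to the other side, with log2 fold changes of -0.66 (SE 0.51) and -0.45 (SE 0.27) and overlapping groups. Among the most abundant of the lists, Ifitm2 and Ifitm1, membrane proteins that restrict virus entry, averaged 157 and 126 CPM with 0.01 (SE 0.07) and -0.07 (SE 0.12). Pml, the organizer of nuclear bodies, had 0.09 (SE 0.09) and Bst2, the tethering protein tetherin, 0.30 (SE 0.24).

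Class I antigen presentation and the negative regulators completed the lists. B2m, the light chain of class I molecules, had a log2 fold change of -0.11 (SE 0.12), and H2-D1, a heavy chain, 0.41 (SE 0.14), with 17.5 to 23.5 CPM in WT, up to 30.1 CPM in Sd/Sd and overlapping groups. H2-D1 has near copies, so its count is uncertain to the extent that reads were shared. Among 11 tested negative regulators other than Usp18, log2 fold changes ran from -0.24 to 0.08. Ptpn11, the phosphatase SHP2, averaged 303 CPM with 0.08 (SE 0.07), and Pias2, a SUMO ligase, 86.4 CPM with 0.02 (SE 0.09).

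Finally, the pattern of Isg15 over the 6 libraries was compared with that of 12577 other genes with at least 1 CPM. The 5 most alike by Pearson correlation of log2 CPM were Uaca (0.997), Gm16136 (0.985), Mdm1 (0.971), Phax (0.971) and Tcf21 (0.970), of which none is on the interferon lists. These values rest on 6 points that share genotype, library and depth, and are a description only. Their differences were smaller than that of Isg15: Uaca, a regulator of apoptosis, stood at 80.6 to 87.0 CPM in wild type and 89.8 to 99.2 CPM in Sd/Sd. On the same measure Oas1a had 0.940, Irf7 0.920, Usp18 0.904 and Rtp4 0.859, while Oasl2, Ifit2, Irf9 and Stat2 had 0.372, 0.090, -0.199 and -0.391. Oas1a, Irf7, Usp18 and Rtp4 were grouped with Isg15 because their Sd/Sd levels all lay above WT. Their higher values partly follow from that grouping, and nothing further is read from them.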

How the data were processed

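Raw counts per gene, 1 file per library, were deposited by the authors. The build was mm9, and STAR 2.5.2b, SAMtools, DESeq2, CASAVA and bcl2fastq 2.17.1.14 were among the tools, per the submitters' processing notes. Which program counted reads, whether by strand and on which annotation, the sources used here do not give. Whether reads of overlapping genes were told apart by strand is therefore not known. Symbols (32620 of 37310 identifiers), chromosomes and exon lengths came from GENCODE M21 on GRCm38, which is not the authors' build; older symbols were matched through RefSeq synonyms.

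Genes were filtered with filterByExpr (minimum count 10, minimum total 15) and all 15471 fitted with edgeR 4.0.16 in R 4.3.3 (TMM, robust dispersions, quasi-likelihood F test across all genes, 2-sided, Benjamini-Hochberg, threshold 0.05). The SE is the size of the log2 fold change over the square root of F. For a single gene, exact permutation of 3 and 3 libraries allows no p under 0.1. DESeq2 1.42.0, limma-voom (limma 3.58.1), other normalizations and filters, and leaving out each library were alternatives.

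The 9 genes and the lists were chosen with earlier results of these data known. Besides the 9, the text names, by rule, the 2 tested genes with the highest CPM per kilobase in each list, STAT factors, Ptf1a and Shh as label checks and the 5 genes most like Isg15; others were named after their values were seen. Some genes that this rule selects are not reported here. Libraries of the same number deviated together from their group means (correlations 0.194, 0.144 and 0.275 for replicates 1 to 3), each over 0.1. On that ground the numbers were taken as pairs in the replicate block alternative only. The main fit held genotype alone, without pairs. WT replicate 1 and Sd replicate 2 also correlated, at 0.182, which is above the 0.144 of the same-numbered replicates 2. What the numbers mark is not known. Replicates within a group differed by more than sampling noise (chi-square per degree of freedom 17.3 to 79.1).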

Additional observations from a re-analysis of the deposited data

How the results depend on the processing

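Counts of genes called over the whole table varied with the processing: 9 became 34 with DESeq2, 3 with limma-voom, 3 without the robust option, 14 without a filter, 8 with the stricter filter, and 2 to 6 with 1 library left out. With the replicate block, which treats same-numbered libraries as paired, 12 were called, and 0 of the 9 genes and 0 of the 103 others, as without it. The cause of these changes was not tested. Members called became 1 with DESeq2. Members with a log2 fold change over 1 became 0 of the 4 still tested under the stricter filter (1 CPM in 3 libraries), which removes Isg15, Usp18, Oas1a, Irf7 and Rtp4 from the test, and 4 without Sd replicate 3, where Rtp4 stood at 0.98. Log2 fold changes over the alternatives that tested them ran from 2.14 to 3.15 for Isg15, 1.63 to 3.19 for Usp18, 1.30 to 1.97 for Oas1a, 1.33 to 2.56 for Irf7, 0.98 to 1.59 for Rtp4, and -0.27 to 0.26 for Stat2, Irf9, Ifit2 and Oasl2. Allowing 1 mismatch in the 8 fixed bases put the response element core in 6 of 7 windowed genes, beside 38.9% of all genes. Depth limits the 5 genes most: their WT libraries hold 2 to 28 counts each.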

Other observations

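A few genes of the lists were low or high in the same replicate number of both genotypes. They were picked after their values were seen. Tap2, a subunit of the peptide transporter of class I presentation, stood at 1.10, 1.27 and 0.0948 CPM in WT replicates 1 to 3 and 2.06, 1.52 and 0.0816 CPM in Sd/Sd replicates 1 to 3, so that replicate 3 was far below the others in both genotypes. Slfn9, a Schlafen family gene, stood at 21.6, 27.5 and 10.5 CPM in wild type and 23.2, 29.0 and 4.79 CPM in Sd/Sd, again lowest in replicate 3 of both. H2-T23, a nonclassical class I gene, stood at 1.18, 0.738 and 0.403 CPM in wild type and 0.873, 0.367 and 0.102 CPM in Sd/Sd. The heat shock gene Hspa1a was highest in replicate 2 of both genotypes, at 5.47 CPM in wild type and 5.17 CPM in Sd/Sd, and lowest in replicate 3, at 0.663 and 0.469 CPM. No such agreement by number was seen for Isg15 or Usp18, which were lowest in WT replicate 3 and highest in Sd/Sd replicate 3.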
